A study of Mus musculus with 9 samples.

Results

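The genes of the cytosolic ribosome's own proteins were followed through 3 populations of CD8+ T cells that were sorted from B16-OVA syngeneic tumors. B16 is a mouse melanoma line, OVA stands for the model antigen ovalbumin, and the series text calls the tumors B16F10. Gene rows were taken by name (Rpl or Rps with a number, Rplp0 to Rplp2, and Rpsa, leaving out the S6 kinases and pseudogene names) and kept with at least 10 counts in at least 3 of the 9 libraries. Of 90 matching rows, 87 met this minimum, out of 56860 genes in the table: 35 proteins of the small subunit and 52 of the large one. The 3 rows under the minimum were Rps12l1, Rpl10l and Rpl32l. All 87 passed the filter on low counts and were among the 15292 genes tested. Fau, which encodes a ribosomal protein as a fusion with a ubiquitin-like sequence, falls outside the name rule and is given with the related genes further down.

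The cells had been sorted by flow cytometry on 2 surface features: α2,6-linked sialic acid, the sugar that the enzyme St6gal1 adds to glycoproteins, and PD-1, a receptor that T cells display after repeated antigen contact. SiaLo_PD1pos denotes the cells labelled Sia2,6loPD-1+CD8+, SiaHi_PD1pos the cells labelled Sia2,6hiPD-1+CD8+, and SiaHi_PD1neg the cells labelled Sia2,6hiPD-1−CD8+. Each group had 3 libraries of polyA RNA from mice labelled WT and untreated. Neither the labels nor the protocols say whether the 3 libraries of a group came from separate mice, so the p-values measure the spread between libraries, which may be technical. No mouse age or strain name is given there.

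The cytosolic ribosome consists of a small (40S) subunit, which reads the mRNA, and a large (60S) subunit, which joins amino acids. Each is assembled in the nucleolus from ribosomal RNA and proteins that are mostly needed in equal number, and the protein genes are accordingly regulated as a group. Their mRNAs typically begin with a C followed by a run of pyrimidines, the 5′ terminal oligopyrimidine (TOP) motif, through which the kinase mTORC1 and the binding protein Larp1 set their translation and stability. Resting naive T cells keep a small translation machinery, and activation of a T cell through its receptor raises ribosome production through Myc and mTORC1.

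Total assigned counts lay between 9714020 and 15030442 per library. Pdcd1, which encodes PD-1, averaged 1122 ± 35.7 CPM in SiaLo_PD1pos, 899 ± 38.0 CPM in SiaHi_PD1pos and 54.9 ± 20.9 CPM in SiaHi_PD1neg (CPM, TMM-scaled counts set to 1 common total in every library; SD, n = 3 each). The summed level of 10 T cell core genes, among them Cd3e and Cd8a, was 6370.2 to 7166 CPM in SiaLo_PD1pos, 5645 to 7316 CPM in SiaHi_PD1pos and 1610.1 to 1753 CPM in SiaHi_PD1neg. Genes of other cell types moved with the groups. Dendritic cell and MHC class II genes (12 of 12 tested, led by Cd74) summed to 2104 to 2534 CPM in SiaLo_PD1pos, 3199 to 5647 CPM in SiaHi_PD1pos and 19786 to 22481 CPM in SiaHi_PD1neg. Melanoma genes (10 of 10, led by Tyrp1) summed to 1881 to 3773 CPM in SiaLo_PD1pos, 967 to 1114 CPM in SiaHi_PD1pos and 4459 to 9369 CPM in SiaHi_PD1neg. Macrophage and monocyte genes (10 of 10, led by Apoe) summed to 1316 to 1631 CPM in SiaLo_PD1pos, 1538 to 2830 CPM in SiaHi_PD1pos and 3684 to 4512 CPM in SiaHi_PD1neg. B and plasma cell genes (7 of 10 tested, led by Ighm) summed to 129 to 136 CPM in SiaLo_PD1pos, 290.1 to 401 CPM in SiaHi_PD1pos and 709.9 to 1194 CPM in SiaHi_PD1neg. CD4 and regulatory T cell genes (10 of 10, led by Ctla4) summed to 1303 to 1381 CPM in SiaLo_PD1pos, 1530.1 to 1723 CPM in SiaHi_PD1pos and 703 to 881 CPM in SiaHi_PD1neg. Cd4 itself went the other way: 2.85 to 6.30 CPM in SiaLo_PD1pos, 26.1 to 40.4 in SiaHi_PD1pos and 264 to 412 in SiaHi_PD1neg. In SiaHi_PD1pos against SiaHi_PD1neg 5 of these 10 genes were higher and 1 lower at an adjusted p under 0.05 in edgeR. Of all tested genes 21.0% were higher and 19.2% lower in that comparison. Natural killer cell genes (10 of 10, led by Nkg7) summed to 1992 to 2287 CPM in SiaLo_PD1pos, 1478 to 2148 CPM in SiaHi_PD1pos and 802 to 1122 CPM in SiaHi_PD1neg. Tyrobp of this list went the other way: 30.5 to 32.5 CPM in SiaLo_PD1pos, 41.5 to 86.2 in SiaHi_PD1pos and 282 to 473 in SiaHi_PD1neg. By the same test 4 of these 10 genes were higher in SiaHi_PD1pos than in SiaHi_PD1neg and 3 lower. Pax5 and Ms4a1 of the B cell list were at 0 in some libraries. No gene of these 6 lists was at 0 in every library. Fewer cells of a type and less RNA per cell cannot be told apart in sorted bulk samples, and the part of other cells in the results that follow was not tested.

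The ribosomal protein genes together held 8.65%, 8.81% and 8.53% of all counts in the SiaLo_PD1pos libraries, 9.06%, 12.4% and 8.47% in the SiaHi_PD1pos libraries and 6.65%, 6.65% and 6.02% in the SiaHi_PD1neg libraries. All 6 PD-1+ libraries lay above all 3 PD-1− libraries, while the SiaLo_PD1pos values fell inside the range of SiaHi_PD1pos. Mitochondrial genes held 3.33% to 4.82% of all counts in SiaLo_PD1pos, 2.25% to 3.56% in SiaHi_PD1pos and 6.98% to 10.3% in SiaHi_PD1neg. With these counts left out of the total, the ribosomal protein genes averaged 9.04% in SiaLo_PD1pos, 10.3% in SiaHi_PD1pos and 7.02% in SiaHi_PD1neg. SiaHi_PD1pos replicate 2 stood apart from the other libraries of its group. It also had the group's highest sums of T cell core, natural killer, dendritic, macrophage and B cell genes. Its sums of melanoma genes and of CD4 and regulatory T cell genes were the group's lowest. The small subunit genes summed to 0.773 ± 0.00718 of the large subunit genes in SiaLo_PD1pos, 0.778 ± 0.0104 in SiaHi_PD1pos and 0.760 ± 0.00855 in SiaHi_PD1neg (ratio of summed CPM, SD, n = 3 each). SiaHi_PD1pos lay above SiaHi_PD1neg without overlap in this ratio, and SiaLo_PD1pos overlapped with both. Without the 5 members with the most total counts (Rpsa, Rplp0, Rpl4, Rps2 and Rps3) the direction turned round, with means of 0.698 in SiaHi_PD1pos and 0.705 in SiaHi_PD1neg.

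Set against the T cell core genes, SiaHi_PD1neg moved from the lowest group to the highest. There were 12.9, 12.6 and 13.2 ribosomal protein counts per T cell core count in SiaLo_PD1pos, 14.8, 18.2 and 14.6 in SiaHi_PD1pos and 39.7, 38.1 and 35.7 in SiaHi_PD1neg. The SiaLo_PD1pos libraries were the lowest and the SiaHi_PD1neg libraries the highest, with no overlap between any of the groups. The level of ribosomal protein mRNA therefore depends on what it is measured against, and the comparisons below give both.

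**Figure D1:**
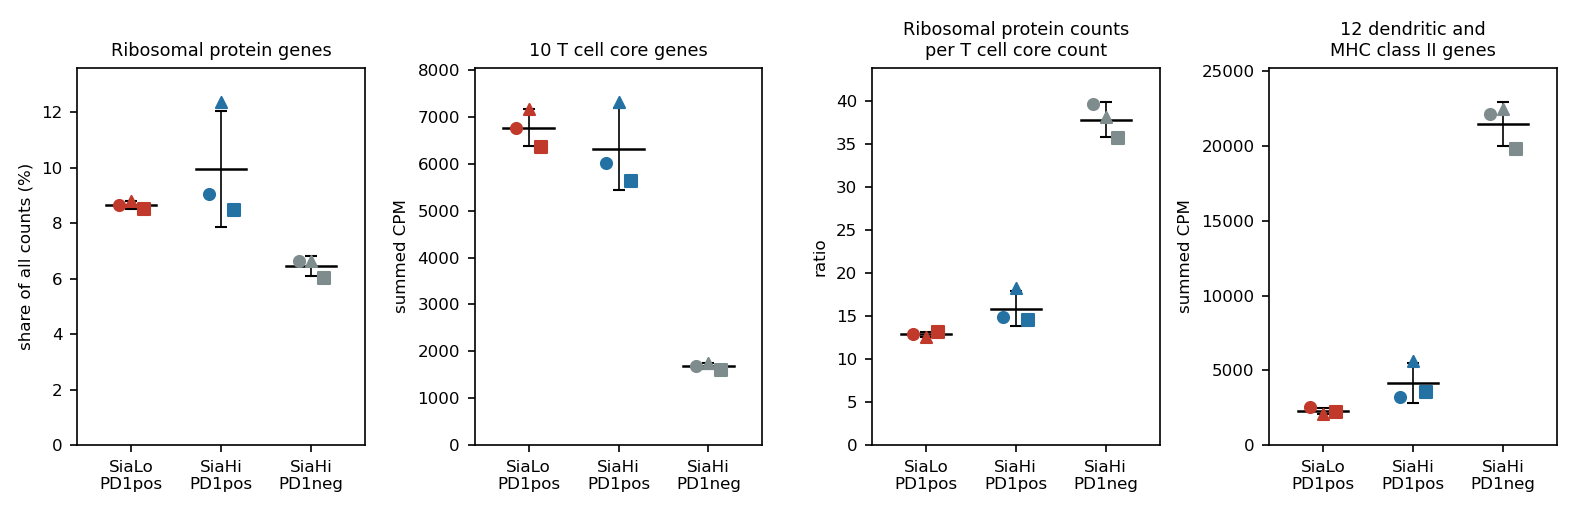
Per-library values (circle, triangle and square for replicates 1, 2 and 3; line and bar for mean ± SD, n = 3) of the counts in ribosomal protein genes as a percentage of all counts, the summed CPM of 10 T cell core genes, the ratio of ribosomal protein to T cell core counts, and the summed CPM of 12 dendritic and MHC class II genes. The share of counts is lowest in SiaHi_PD1neg (6.02% to 6.65%), whereas the ratio to T cell core counts is highest there (35.7 to 39.7).

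Levels of single members were compared per kilobase of annotated length, as CPM per kb averaged over the 9 libraries. The most abundant were Rplp1 at 2647, Rps15 at 1862 and Rps3a1 at 1811 CPM per kb. Rplp1 is part of the stalk of the large subunit that recruits elongation factors, Rps15 lies in the head of the small subunit, and Rps3a1 in its platform. The lowest were Rpl3l at 0.553, Rps3a3 at 1.24 and Rpl39l at 1.75 CPM per kb. Rpl3l is a paralog used in striated muscle, Rpl39l a paralog known from testis, and Rps3a3 a copy of Rps3a1. Of the 87 members, 75 had 100 or more CPM per kb.

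The 12 members under 100 CPM per kb were of 2 kinds. Rpl3l, Rpl7l1, Rpl22l1, Rpl36al, Rpl39l, Rpl6l, Rps3a2, Rps3a3 and Rps4l are paralogs or copies of another member. Rps10 (3.08 CPM per kb), Rpl24 (3.08) and Rpl13a (29.7) are regular subunits of every ribosome. In the table's own exon coordinates, other gene models covered 28.7% of the exon bases of Rps10, 47.0% of Rpl24 and 35.4% of Rpl13a. The overlapping models Gm49804, Gm28037 and Gm45713 had 0 counts in all 9 libraries. The same held for Rpl36al, 24.5% of which was covered by Gm49383 with 0 counts. The treatment of reads in overlapping genes is not given in the sources used here, and the absolute levels of these 4 genes are uncertain. Rps10 had 110, 118 and 81 counts in SiaLo_PD1pos, 92, 144 and 81 in SiaHi_PD1pos and 141, 83 and 0 in SiaHi_PD1neg, where the count of 0 in replicate 3 allows up to 0.309 CPM. Copies such as Rps3a2, Rps3a3 and Rpl6l can share reads with their source genes, and their values are uncertain for that reason.

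The comparison of SiaHi_PD1pos with SiaHi_PD1neg sets PD-1+ against PD-1− cells that were both sorted as high in α2,6-linked sialic acid. After TMM scaling 66 of the 87 ribosomal protein genes were higher in SiaHi_PD1pos and 1 was lower, but with libraries scaled to their T cell core counts 0 were higher, also at an unadjusted p under 0.05, and 83 were lower. Among all genes tested, 21.0% were called higher and 19.2% lower after TMM scaling (edgeR's quasi-likelihood test, Benjamini-Hochberg adjusted p under 0.05). The median log2 fold change of the members was 0.64, a fold of 1.56, against 0.02 for all genes. For 64 of the 87 genes every SiaHi_PD1pos library lay above every SiaHi_PD1neg library, which held for 24.1% of all genes.

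Among the small subunit proteins, 24 of 35 were higher after TMM scaling, 1 was lower and the median log2 fold change was 0.58. Rps2, which lines the mRNA entry channel, had 2565, 3716 and 2232 CPM in SiaHi_PD1pos and 1309.5, 1358 and 1213 CPM in SiaHi_PD1neg. All 3 SiaHi_PD1pos libraries were above all SiaHi_PD1neg libraries, with replicate 2 the highest. The log2 fold change of Rps2 was 1.13 ± 0.17 (SE), with an adjusted p of 0.00016 in edgeR. Rpsa, a component of the small subunit that also serves as a laminin receptor, had 3389, 5153 and 3195 CPM in SiaHi_PD1pos and 2082, 1855 and 1698 CPM in SiaHi_PD1neg. Its log2 fold change was 1.06 ± 0.18. Rps15a had 1379, 2023 and 1264 CPM in SiaHi_PD1pos and 800.2, 799 and 653 CPM in SiaHi_PD1neg, and its log2 fold change was 1.05 ± 0.17. Rps12, a protein of the small subunit's beak, had a log2 fold change of 0.99 ± 0.18. For Rpsa, Rps15a and Rps12, too, no SiaHi_PD1pos library overlapped with SiaHi_PD1neg. Rps6, the substrate of the S6 kinases downstream of mTORC1, had 1299.8, 1852 and 1263 CPM in SiaHi_PD1pos and 998, 989 and 834 CPM in SiaHi_PD1neg, a log2 fold change of 0.65 ± 0.16 that lay near the family median; it was chosen for its role after its values were seen, as were Rpl5, Rpl11 and the stalk proteins Rplp0 and Rplp2 below.

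Among the large subunit proteins, 42 of 52 were higher after TMM scaling, 0 were lower (1 at an unadjusted p under 0.05) and the median was 0.67. Rpl13a, which in human monocytic cells is known to leave the ribosome and silence inflammatory mRNAs, had 76.4, 96.5 and 76.6 CPM in SiaHi_PD1pos and 31.0, 36.5 and 44.7 CPM in SiaHi_PD1neg. Its log2 fold change of 1.16 ± 0.17 was the highest of the family (adjusted p = 0.000117 in edgeR), although its low level per kb went with an overlapping gene model. The stalk proteins Rplp0, Rplp1 and Rplp2 had log2 fold changes of 0.90, 0.55 and 0.78. Rpl5 and Rpl11, which travel with the 5S ribosomal RNA and bind Mdm2 when assembly fails, stood at 0.73 and 0.68. The lowest values were those of paralogs. Rpl3l had 1, 7 and 0 counts in SiaHi_PD1pos and 33, 41 and 17 in SiaHi_PD1neg, a log2 fold change of -3.46 ± 1.38 that missed the threshold (adjusted p = 0.0609 in edgeR). Rps4l, a copy of the small subunit gene Rps4x, had 39, 58 and 21 counts in SiaHi_PD1pos and 165, 117 and 91 in SiaHi_PD1neg and was the single member called lower (log2 fold change -1.70 ± 0.45, adjusted p = 0.0091 in edgeR).

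The size of the difference leaned on SiaHi_PD1pos replicate 2. Without it, 56 members were called higher and 2 lower, and the median log2 fold change was 0.39. Of the 16300 genes tested in that fit, 3253 were higher and 2687 lower, with a median of 0.003.

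**Figure D2:**
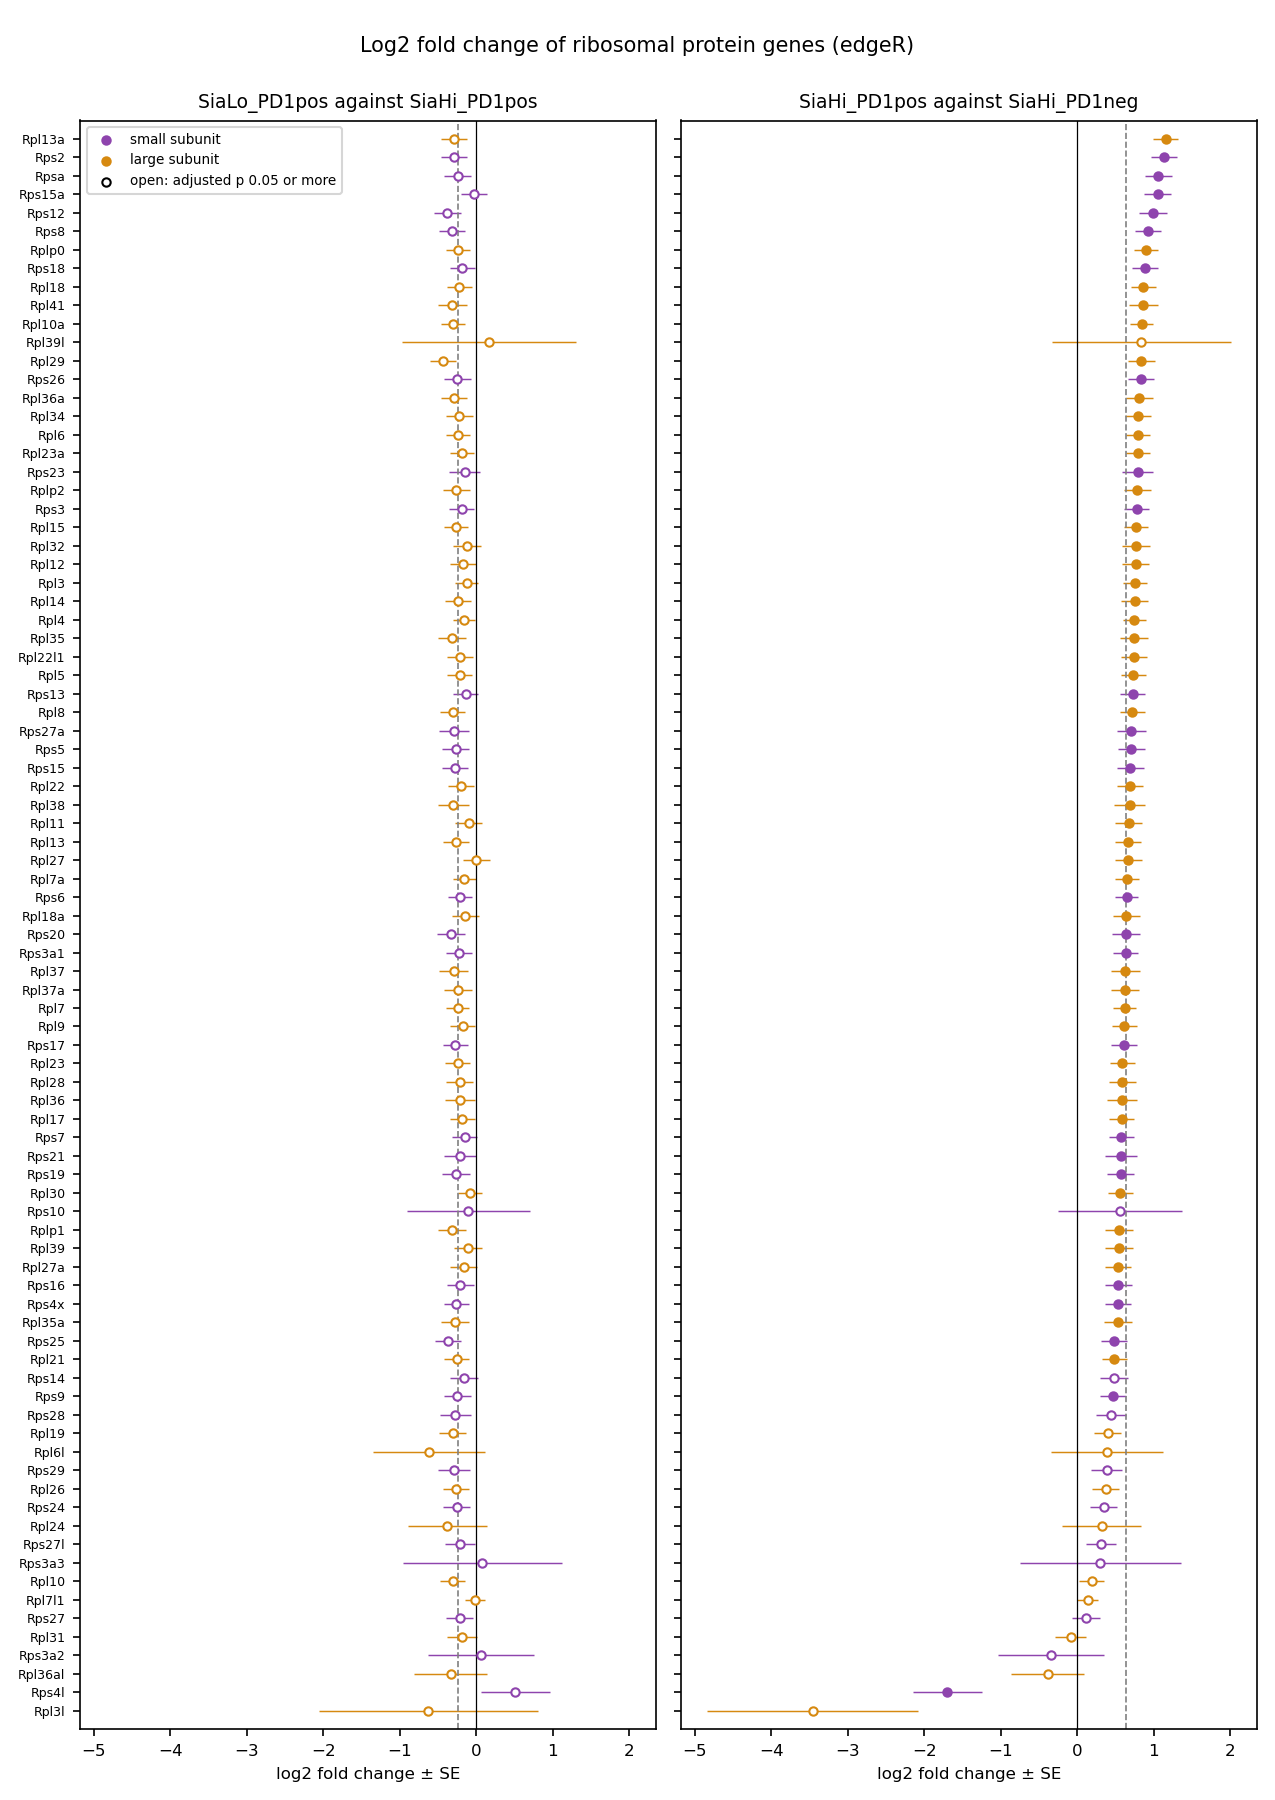
Log2 fold change ± SE of 86 of the 87 ribosomal protein genes after TMM scaling, for SiaLo_PD1pos against SiaHi_PD1pos (left) and SiaHi_PD1pos against SiaHi_PD1neg (right), in the same gene order and colored by subunit; filled points passed an adjusted p under 0.05 and dashed lines mark the median of all 87. On the left 0 genes were called and the median is -0.24 (0.05 without SiaHi_PD1pos replicate 2); on the right 66 were called higher and 1 lower around a median of 0.64, a direction that turns round under T cell core scaling.

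Scaling the libraries to their T cell core counts shifted the whole table as well as the family. Under it the median log2 fold change of all genes in SiaHi_PD1pos against SiaHi_PD1neg was -1.86, while 1.86% of all genes were called higher and 80.5% lower. The median of the ribosomal protein genes was -1.29, with 83 called lower and Rpl6l, Rps3a3, Rpl39l and Rps10 not called. Relative to the median of all genes, the members stood 0.62 higher on the log2 scale after TMM scaling and 0.58 higher under T cell core scaling. A change of library factors moves the log2 fold changes of all genes by nearly the same amount, so the closeness of these 2 distances follows from the method.

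**Figure D3:**
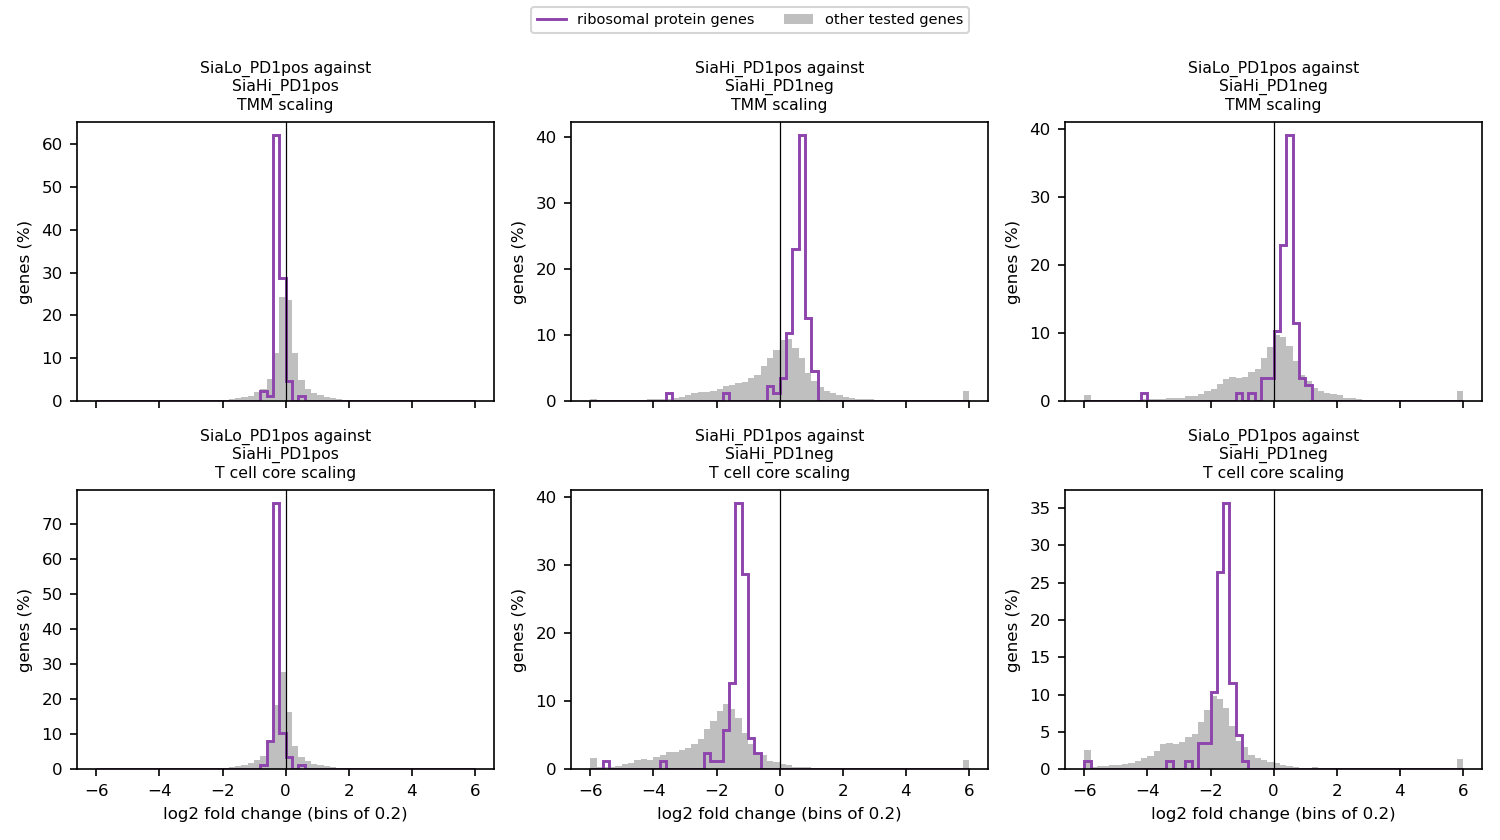
Distribution of log2 fold changes (percentage of genes in bins of 0.2, values beyond ±6 placed in the outermost bins) of the ribosomal protein genes (purple line, n = 87) and the other tested genes (gray bars) in the 3 comparisons, after TMM scaling (top) and with libraries scaled to T cell core counts (bottom). In both comparisons with SiaHi_PD1neg the members lie above 0 in the top row (medians 0.64 and 0.42) and below 0 in the bottom row (-1.29 and -1.58), and the scaling moves the other genes along with them.

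The comparison of SiaLo_PD1pos with SiaHi_PD1pos bears on α2,6-linked sialic acid among PD-1+ cells. By edgeR after TMM scaling 0 of the 87 ribosomal protein genes were called, where 0.268% of all tested genes were higher and 1.13% lower. At an unadjusted p under 0.05, 0 were higher and 1 was lower. DESeq2 called 0 and limma-voom with sample weights called 1, Rpl29, as lower. Rpl29, a protein of the large subunit, was the member farthest below the family median among the abundant ones. It had 753, 763 and 716 CPM in SiaLo_PD1pos and 875, 1343 and 798 CPM in SiaHi_PD1pos. The SiaLo_PD1pos libraries all lay under the SiaHi_PD1pos ones, and the log2 fold change was -0.43 ± 0.17 (adjusted p = 0.43 in edgeR).

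The members' median log2 fold change was -0.24, against -0.01 for all genes, and 82 of 87 estimates were negative. After TMM scaling this tilt rested on 1 library: without SiaHi_PD1pos replicate 2 the median was 0.05, with 64 estimates positive and 23 negative. With libraries scaled to their T cell core counts 0 members were called, where 0.0719% of all genes were higher and 1.34% lower, but at an unadjusted p under 0.05, 0 were higher and 60 lower. On that scale the members' median was -0.31, against -0.12 for all genes, and 83 of 87 estimates were negative. The share of all genes at an unadjusted p under 0.05 was not taken, so the count of 60 has no background to be read against. The ratios of ribosomal protein to T cell core counts given above were lower in every SiaLo_PD1pos library (12.6 to 13.2) than in SiaHi_PD1pos replicates 1 and 3 (14.8 and 14.6) as well as replicate 2 (18.2). The other names by rule were low-count copies. Rps4l stood at 0.51 ± 0.45, Rpl39l at 0.17 ± 1.14, Rps3a3 at 0.08 ± 1.04, Rpl6l at -0.62 ± 0.74 and Rpl3l at -0.62 ± 1.44, so their errors were close to or larger than their differences. St6gal1 itself averaged 12.3 ± 5.20 CPM in SiaLo_PD1pos and 63.8 ± 8.20 CPM in SiaHi_PD1pos (SD, n = 3 each), a log2 fold change of -2.38 ± 0.25 (SE).

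The comparison of SiaLo_PD1pos with SiaHi_PD1neg changes both sorted features at once and shares its libraries with the other 2 comparisons. After TMM scaling 37 members were higher in SiaLo_PD1pos and 2 lower, whereas T cell core scaling gave 0 higher and 84 lower, with 1.84% of all genes higher and 81.9% lower. Of all genes tested, 20.5% were called higher and 18.9% lower after TMM scaling. The members' median log2 fold change was 0.42, a fold of 1.34, which was 0.41 above the median of all genes. Among the called members Rps15a led with 1612, 1498 and 1461 CPM in SiaLo_PD1pos against 800.2, 799 and 653 CPM in SiaHi_PD1neg, a log2 fold change of 1.02 ± 0.17 (adjusted p = 0.000351 in edgeR). Every SiaLo_PD1pos library was above every SiaHi_PD1neg library, as was the case for 67 of the 87 members and for 29.3% of all genes. Rpl13a, Rps2, Rpsa and Rps18 followed among the called members at 0.87, 0.84, 0.82 and 0.71. The 2 members called lower were Rpl3l (-4.08 ± 1.44) and Rps4l (-1.18 ± 0.45), with adjusted p-values of 0.0379 and 0.0492 in edgeR. Both calls lay close to the threshold. Rpl3l lost its call with the replicate block and without SiaLo_PD1pos replicate 1 or 2, SiaHi_PD1pos replicate 1, or SiaHi_PD1neg replicate 1 or 2. Rps4l lost its call without any 1 of the SiaLo_PD1pos or SiaHi_PD1neg libraries or SiaHi_PD1pos replicate 1, without a filter, and with TMM factors from genes outside the family. Over all alternatives their adjusted p-values reached 0.164 for Rpl3l and 0.208 for Rps4l. The number called moved with the libraries and scaling used, between 22 and 68 when 1 library was left out.

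Each member was also compared with the family itself. For this, library factors were taken from the members' own summed counts, so that a gene that followed the family would have a log2 fold change of 0. In SiaHi_PD1pos against SiaHi_PD1neg, 5 members were then higher than the family and 9 lower, where 5.38% of all genes were higher and 33.0% lower on this scale. The share of members called was thus near that of all genes for higher calls and below it for lower calls. Those that follow were also called in each of the 9 fits that left out a library. Rps2, Rpsa and Rps15a were above the family, by 0.46 ± 0.09, 0.39 ± 0.09 and 0.38 ± 0.10 on the log2 scale. Rpl31, Rps27, Rpl10 and Rps4l were below it, at -0.76 ± 0.15, -0.57 ± 0.12, -0.47 ± 0.10 and -2.41 ± 0.42. Rplp0, Rps12, Rpl3l, Rps24, Rpl26 and Rpl19 passed with all libraries but lost the call in at least 1 of those fits.

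In SiaLo_PD1pos against SiaHi_PD1neg the same scale gave 3 members above and 9 below the family, with 6.82% of all genes higher and 26.3% lower, shares above those of the members in both directions. Rps15a (0.57 ± 0.10) and Rps2 (0.39 ± 0.09) were above it in every fit, and Rpl31, Rpl10, Rps27 and Rps4l below it. Rpsa missed the threshold without SiaLo_PD1pos replicate 2 (adjusted p = 0.0538 in edgeR). The SiaHi_PD1neg libraries enter both comparisons, so the second is no independent repeat of the first. Between SiaLo_PD1pos and SiaHi_PD1pos 0 members left the family, also at an unadjusted p under 0.05, where 0.0850% of all genes were higher and 0.405% lower. These genes were picked out by this scale, which was added after the data had been seen.

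Of the members that differed from the family in the first of these comparisons, Rps2, Rpsa, Rps15a, Rpl31, Rps27 and Rpl10 are shown by their start regions, together with Rpl13a, the member with the highest fold change after TMM scaling, because a TOP motif at the start of the mRNA is a feature through which translation of the family is known to be regulated. Each line gives 60 bases before and 40 bases from the annotated start on the transcript's own strand, from RefSeq (GRCm38.p6). Capitals mark a TOP-like run, defined as beginning at the first C that lies within 5 bases of the annotated start and is followed by at least 4 bases that are each C or T, on the transcript's strand.
Rps2 (chr17:24720003-24720102, plus strand): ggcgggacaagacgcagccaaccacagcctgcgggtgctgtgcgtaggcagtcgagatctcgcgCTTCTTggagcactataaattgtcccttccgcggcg
Rpsa (chr9:120127706-120127805, plus strand): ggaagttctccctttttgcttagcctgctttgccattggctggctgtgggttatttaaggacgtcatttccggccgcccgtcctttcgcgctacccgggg
Rps15a (chr7:118116108-118116207, minus strand): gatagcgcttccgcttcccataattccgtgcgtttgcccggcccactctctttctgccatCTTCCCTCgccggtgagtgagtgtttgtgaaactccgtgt
Rpl13a (chr7:45128706-45128805, minus strand): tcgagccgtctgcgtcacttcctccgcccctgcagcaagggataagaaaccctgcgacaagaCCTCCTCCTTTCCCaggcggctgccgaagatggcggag
Rpl31 (chr1:39367791-39367890, plus strand): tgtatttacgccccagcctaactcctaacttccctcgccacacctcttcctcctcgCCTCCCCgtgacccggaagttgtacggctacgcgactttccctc
Rps27 (chr3:90213609-90213708, minus strand): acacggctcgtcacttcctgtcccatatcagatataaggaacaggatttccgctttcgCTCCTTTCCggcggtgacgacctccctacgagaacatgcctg
Rpl10 (chrX:74270756-74270855, plus strand): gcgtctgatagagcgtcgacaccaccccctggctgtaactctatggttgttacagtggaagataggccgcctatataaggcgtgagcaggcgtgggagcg

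The run began exactly at the annotated start in Rps15a, 4 bases after it in Rps2, 2 bases after it in Rpl13a, 2 bases before it in Rps27 and 4 bases before it in Rpl31. Rpsa and Rpl10 had no such run in this window. Of the 3 members shown that lay above the family 2 had one, and so did 2 of the 3 abundant members shown that lay below it. Of the 87 members 63 had a start region in the RefSeq table, and 29 of these (46.0%) held a run. A run was found for 23.8% of the 10862 other tested genes with a start region and for 21.2% of all 27025 genes with one, counting a gene with several start regions once. The run is a match of letters, and start sites differ between transcripts of a gene.

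The members above and below the family were picked from these same libraries, so their difference in plain levels is no separate result. Rpl31, which sits at the rim of the peptide exit tunnel, had 776, 868 and 734 CPM in SiaLo_PD1pos, 816, 1187 and 696 CPM in SiaHi_PD1pos and 826, 1218 and 823 CPM in SiaHi_PD1neg. The groups overlapped, and SiaHi_PD1neg replicate 2 was the highest of the 9 libraries. The exons of Rpl31 overlap those of Tbc1d8 on the other strand over 25.3% of their bases, and whether reads were counted by strand is not stated. Rps27, a zinc finger protein of the small subunit, had 595, 575 and 594 CPM in SiaLo_PD1pos, 569, 934 and 545 CPM in SiaHi_PD1pos and 674, 639.8 and 574 CPM in SiaHi_PD1neg. Rpl10, which joins the large subunit late and completes its catalytic center, had 1257, 1279.6 and 1218 CPM in SiaLo_PD1pos, 1378, 1972 and 1287 CPM in SiaHi_PD1pos and 1369, 1529 and 1173 CPM in SiaHi_PD1neg. The 3 groups overlapped for Rps27, while for Rpl10 SiaHi_PD1neg overlapped with both other groups and SiaLo_PD1pos lay below SiaHi_PD1pos. None of these 3 passed the test after TMM scaling, with adjusted p-values of 0.767, 0.646 and 0.398 in edgeR for SiaHi_PD1pos against SiaHi_PD1neg.

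**Figure D4:**
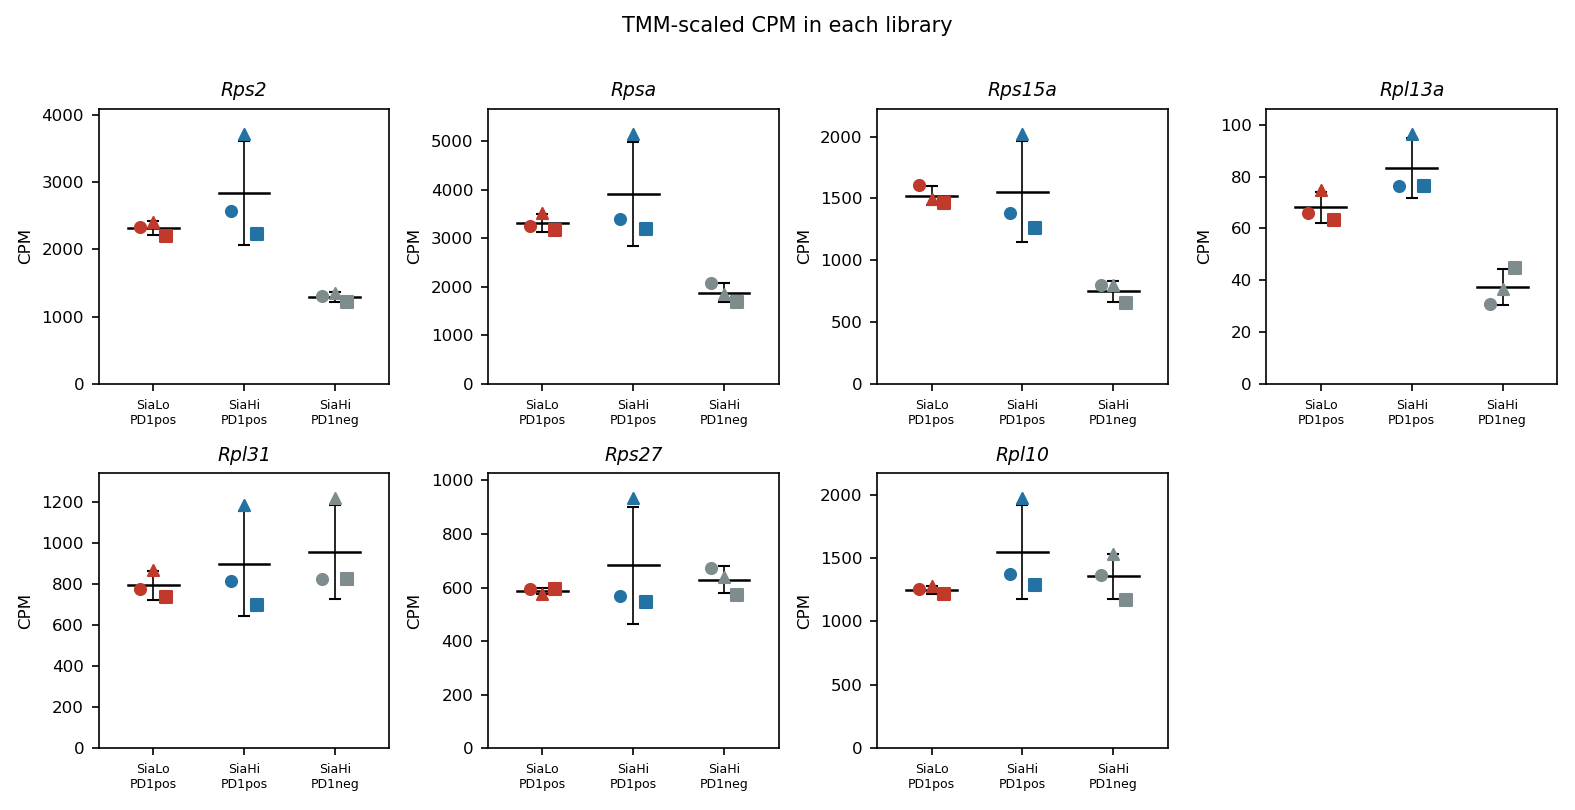
TMM-scaled CPM of 7 ribosomal protein genes in each library (circle, triangle and square for replicates 1, 2 and 3; line and bar for mean ± SD, n = 3). In the top row (Rps2, Rpsa, Rps15a, Rpl13a) all PD-1+ libraries lie above all SiaHi_PD1neg libraries, whereas in the bottom row (Rpl31, Rps27, Rpl10) the groups lie at similar levels. The genes were chosen by their differences in these same libraries, so the contrast of the rows is no separate result. SiaHi_PD1pos replicate 2 is the highest library for 6 of the 7 genes.

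Several ribosomal proteins have a paralog that can take their place in the subunit. Its share was taken as the percentage of the pair's counts per base of annotated length. Rpl22 binds RNA and is needed for the development of αβ T cells in mice, and Rpl22l1 is its paralog. Rpl22l1 made up 33.0, 29.3 and 30.4% of the pair in SiaLo_PD1pos, 33.1, 29.6 and 31.0% in SiaHi_PD1pos and 25.4, 32.7 and 32.6% in SiaHi_PD1neg. These ranges overlapped, and both genes were called higher in SiaHi_PD1pos than in SiaHi_PD1neg after TMM scaling, by 0.74 and 0.69 on the log2 scale, although both were lower under T cell core scaling. Rps27l, a paralog of Rps27 known as a p53 target, made up 15.8, 16.1 and 15.8% in SiaLo_PD1pos, 17.6, 15.3 and 14.8% in SiaHi_PD1pos and 14.2, 15.7 and 12.2% in SiaHi_PD1neg. Rpl7l1, a nucleolar relative of Rpl7, made up 4.21, 4.03 and 4.18% in SiaLo_PD1pos, 4.1, 2.96 and 3.89% in SiaHi_PD1pos and 4.81, 5.45 and 4.43% in SiaHi_PD1neg. For Rps27l SiaHi_PD1pos overlapped with both other groups. All SiaLo_PD1pos libraries lay narrowly above all SiaHi_PD1neg libraries (at least 15.77% against at most 15.70%). For Rpl7l1 the SiaHi_PD1neg libraries lay above all the others. Neither paralog was called in any comparison after TMM scaling.

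The rare paralogs took their largest shares in SiaHi_PD1neg. Rps4l made up 0.371, 0.316 and 0.189% of its pair with Rps4x in SiaLo_PD1pos, 0.188, 0.2 and 0.114% in SiaHi_PD1pos and 0.921, 0.683 and 0.814% in SiaHi_PD1neg, so all SiaHi_PD1neg libraries lay above the other 6. Rpl3l made up 0.00615, 0 and 0.0324% in SiaLo_PD1pos, 0.00676, 0.0369 and 0% in SiaHi_PD1pos and 0.313, 0.422 and 0.255% in SiaHi_PD1neg of its pair with Rpl3. Rpl36al made up 0.592, 0.782 and 0.711% in SiaLo_PD1pos, 0.693, 0.69 and 0.804% in SiaHi_PD1pos and 1.16, 1.52 and 2.46% in SiaHi_PD1neg of its pair with Rpl36a. Again the SiaHi_PD1neg libraries had the highest values, without overlap. Rpl39l had at most 46 counts in a library and 0 in SiaHi_PD1neg replicate 2, and no order of its shares can be read. The dendritic, macrophage and melanoma gene sums were also highest in SiaHi_PD1neg, and their part in these shares was not tested.

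**Figure D5:**
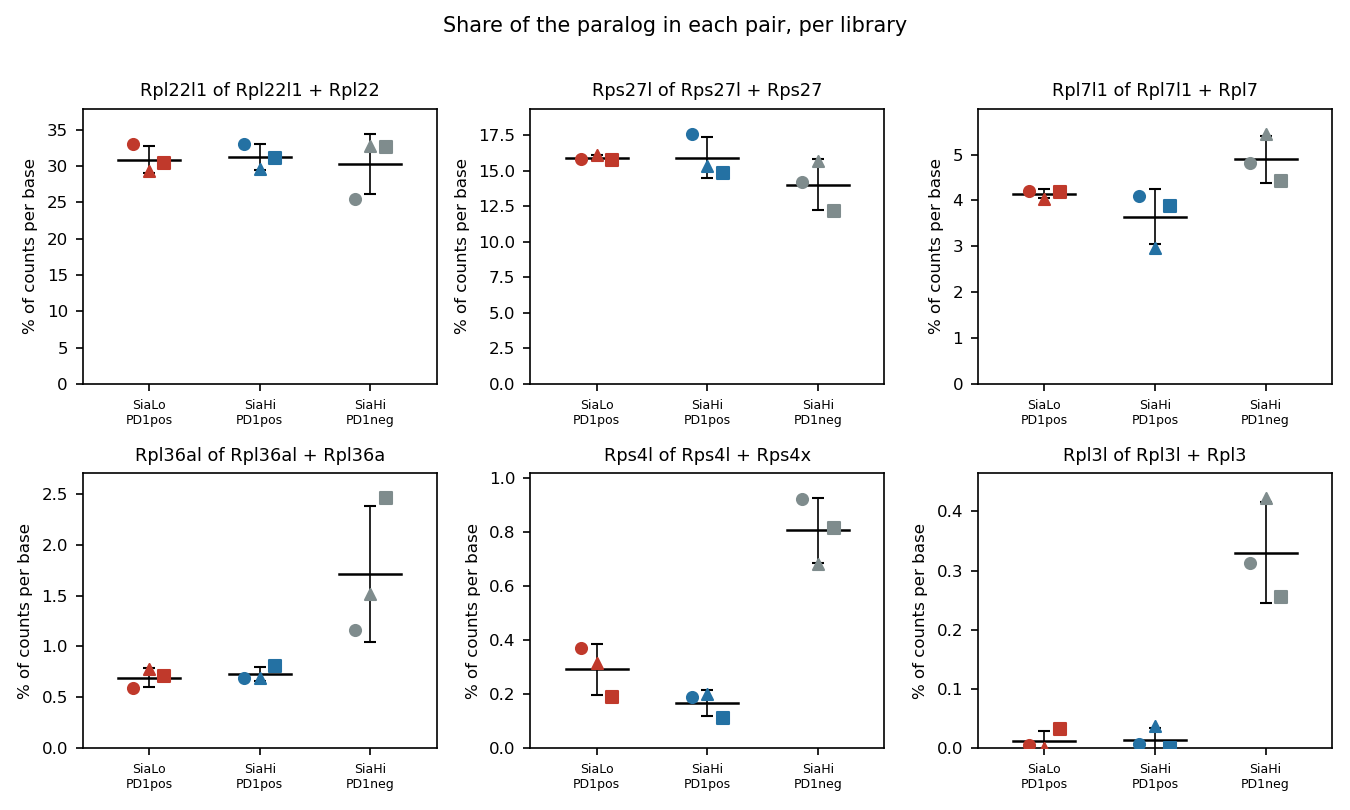
Share of 6 paralogs in the pair with their main gene, as a percentage of the pair's counts per base (circle, triangle and square for replicates 1, 2 and 3; line and bar for mean ± SD, n = 3; every axis starts at 0 and has its own range). The 3 groups overlap for Rpl22l1. For Rps27l SiaHi_PD1pos overlaps with both other groups, and SiaLo_PD1pos lies narrowly above SiaHi_PD1neg. Rpl36al, Rps4l and Rpl3l take their highest shares in SiaHi_PD1neg (1.71%, 0.806% and 0.330% on average).

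Lists of genes that build or use ribosomes were counted in SiaHi_PD1pos against SiaHi_PD1neg after TMM scaling. Of all tested genes, 21.0% were called higher and 19.2% lower there. The medians of all 9 lists were negative under T cell core scaling, which moved the median of all genes from 0.02 to -1.86. Values of single list genes are given after TMM scaling only. Of 50 ribosome biogenesis factors, 46 were higher and 0 lower (47 and 0 at an unadjusted p under 0.05), with a median log2 fold change of 0.84. Ncl, the nucleolar protein nucleolin, had 1589, 1727 and 1504 CPM in SiaHi_PD1pos and 716, 696 and 698 CPM in SiaHi_PD1neg, a log2 fold change of 1.19 ± 0.12. Gar1, a protein of the particles that carry out pseudouridylation of ribosomal RNA, stood at 1.78 ± 0.18, and the nucleolar helicase Ddx21 at 1.08 ± 0.11. Of 36 initiation factors 28 were higher and 0 lower (32 and 0 unadjusted), among them Eif3b (0.90 ± 0.12) and the cap-binding protein Eif4e (0.98 ± 0.14). Of 9 elongation factors and related genes 7 were higher, and the 1 lower was Eef2k, the gene of the Eef2 kinase (log2 fold change -1.14). Eef2, which moves the ribosome along the mRNA, stood at 0.78 ± 0.12. Of 13 tested host genes of small nucleolar RNAs, several of which carry TOP motifs themselves, 9 were higher and 0 lower (11 and 0 unadjusted), among them Snhg5 (0.94 ± 0.14) and Gas5 (0.72 ± 0.14).

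Of 77 tested mitochondrial ribosomal protein genes, whose products form the separate ribosome of mitochondria, 30 were higher and 0 lower (41 and 0 unadjusted), with a median of 0.49. Of 14 tested RNA polymerase I and rRNA transcription genes 5 were higher and 0 lower (8 and 0 unadjusted). Rack1, a scaffold on the small subunit, was higher (0.65 ± 0.16), while Fau (0.36, adjusted p = 0.18 in edgeR) was not called. Of 11 tested genes of ribosome quality control and ribosomal protein stress 4 were higher and 2 lower. Of 29 genes of the mTORC1 and Myc control of translation 5 were higher and 4 lower, with a median of 0.01. The 17.2% of this list called higher was near the 21.0% of all tested genes. Myc, the transcription factor that drives ribosome production, had 161, 162 and 150.3 CPM in SiaHi_PD1pos and 53.1, 60.3 and 77.3 CPM in SiaHi_PD1neg and was higher by 1.32 ± 0.14. Its antagonist Mxi1 was also higher (1.37 ± 0.18), and Deptor, an inhibitor of mTOR, was lower (-2.24 ± 0.41).

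In SiaLo_PD1pos against SiaHi_PD1pos 0 of the 242 tested genes of these 9 lists were called by edgeR. Of all tested genes 0.268% were called higher and 1.13% lower. At an unadjusted p under 0.05, 1 list gene was higher and 19 were lower. The share of all genes at an unadjusted p was not taken, so the unadjusted counts in this paragraph have no background to be read against. The ribosome biogenesis factors had a median of -0.23, with 0 higher and 11 lower at an unadjusted p under 0.05, and -0.15 without SiaHi_PD1pos replicate 2, where 1 was called lower. Ncl had 1305, 1470.4 and 1310.1 CPM in SiaLo_PD1pos and 1589, 1727 and 1504 CPM in SiaHi_PD1pos (-0.24 ± 0.12). Myc had 118, 112 and 111 CPM in SiaLo_PD1pos and 161, 162 and 150.3 CPM in SiaHi_PD1pos, with no overlap, and a log2 fold change of -0.47 ± 0.14 that missed the threshold (adjusted p = 0.175 in edgeR). Of 12 genes of naive and stem-like T cells, by contrast, 9 were lower and 0 higher.

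Across the 9 libraries the members varied together. The median Pearson correlation between a member's log2 CPM and the mean of the members was 0.960, and between pairs of members it was 0.925, as a description of libraries that share groups, depth and scaling. The tested genes outside the family whose log2 CPM followed the members' mean most closely were Ppia (r = 0.997), Arf5 (0.994), Guk1 (0.994), Eef1b2 (0.993) and Hint1 (0.987), each over 9 libraries. Ppia, which encodes cyclophilin A, had 1317, 1369.5 and 1258 CPM in SiaLo_PD1pos, 1393, 1887 and 1215 CPM in SiaHi_PD1pos and 1159.8, 1124 and 976 CPM in SiaHi_PD1neg. Its highest value, like that of the family, was in SiaHi_PD1pos replicate 2.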

How the data were processed

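Gene-level counts were the authors' deposited measurement for the 9 libraries. Per the submitters' processing notes, reads were trimmed by Trim Galore 0.6.5, mapped to GRCm38 by STAR 2.7.6a and summed over genes by featureCounts 1.6.3. Strandedness and the treatment of reads that map to several genes are not given here, and the table's coordinates, of an unknown build, are not printed. No molecular identifiers are described in the labels' protocols, so reads may include PCR copies.

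All 9 libraries entered 1 fit (edgeR 4.0.16, limma 3.58.1, R 4.3.3) with filterByExpr, TMM factors of 0.928 to 1.05, robust quasi-likelihood F tests with 6 residual degrees of freedom and Benjamini-Hochberg adjustment over all tested genes. Each SE was derived from the estimate and its F. Replicates differed by 7.04 to 57.9 times the counting noise (chi-square per degree of freedom), so no 2 libraries were counted as 1. Between libraries of the same replicate number the correlation of deviations was -0.00 to 0.09, over 0.1 in 0 of 9 pairs. Such small values cannot decide whether these libraries belong together, and the main fit had no pairing. The fit was tested on simulated counts.

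The members and the gene lists were chosen with earlier results of these data known. Named by rule were the 5 highest and 5 lowest called members, the 3 farthest above and below the members' median, the 3 most and least abundant per kb, paralog pairs, up to 3 called genes per list with the smallest adjusted p, and the 5 genes most alike. A few genes of the lists are not reported by name here. Alternatives were other scalings, filters, tools (DESeq2 1.42.0, limma-voom), fewer libraries, a replicate block and added pseudogene counts.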

Additional observations from a re-analysis of the deposited data

How the results depend on the processing

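In SiaLo_PD1pos against SiaHi_PD1pos the number of all genes called was 126 with TMM factors from short genes outside the family, 535 without a filter, 466 with DESeq2 and 1262 with limma-voom, against 214 as reported, and limma-voom called 1 member. Leaving out 1 library gave 105 to 232 genes called, and a members' median of -0.36 to 0.0463 (0.0463 without SiaHi_PD1pos replicate 2). T cell core scaling gave 12599 and 12812 genes called in SiaHi_PD1pos and SiaLo_PD1pos against SiaHi_PD1neg, with 83 and 84 members called lower and members' medians of -1.29 and -1.58. Under it the log2 fold changes in SiaHi_PD1pos against SiaHi_PD1neg were -0.76 for Rpl13a, -0.79 for Rps2, -0.87 for Rpsa, -0.87 for Rps15a, -0.94 for Rps12, -1.39 for Rplp1, -1.23 for Rps15, -1.29 for Rps3a1, -1.23 for Rpl22, -1.81 for Rps27, -1.11 for Rpl36a, -1.38 for Rpl39, -1.30 for Rpl7, -1.16 for Rpl3, -1.39 for Rps4x, -1.18 for Rpl22l1, -1.61 for Rps27l and -1.76 for Rpl7l1. In SiaLo_PD1pos against SiaHi_PD1neg they were -0.98 for Rps15a, -1.15 for Rpl13a, -1.16 for Rps2, -1.19 for Rpsa and -1.29 for Rps18. The number of members called in SiaLo_PD1pos against SiaHi_PD1neg, 39 as reported, was 64 with TMM factors from short genes outside the family, 59 without a filter and 64 with only the 6 libraries compared, and 22 to 68 when 1 library was left out, the extremes being without SiaLo_PD1pos replicate 2 and SiaHi_PD1pos replicate 2. Against the family total, leaving out 1 library gave 8 to 18 members called in SiaHi_PD1pos against SiaHi_PD1neg and 6 to 25 in SiaLo_PD1pos against SiaHi_PD1neg. Leaving out the 5 members with the most total counts gave a family share of 7.30% in SiaLo_PD1pos and 5.59% in SiaHi_PD1neg, and small to large subunit ratios of 0.696 in SiaLo_PD1pos, 0.698 in SiaHi_PD1pos and 0.705 in SiaHi_PD1neg. Leaving mitochondrial counts out of the total gave shares of 9.04% in SiaLo_PD1pos and 7.02% in SiaHi_PD1neg. With the replicate number as a block, 69 members were called in SiaHi_PD1pos against SiaHi_PD1neg, 51 in SiaLo_PD1pos against SiaHi_PD1neg and 0 in SiaLo_PD1pos against SiaHi_PD1pos. The labels do not say whether libraries of the same number belong together. The cause of these changes was not tested. Of the 87 members 31 had a length under 1500 bases, the limit for the short genes. Members under 1 CPM, such as Rpl3l, rest on few counts, and depth limits what can be said of them.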
